A study of Mus musculus with 12 samples.

Results

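The 10 genes followed here encode constitutive plasma proteins of the liver and were measured in 12 RNA-seq libraries of primary mouse hepatocytes: Alb, Gc, Ttr, Rbp4, Trf, Serpina6, Serpina7, Ambp, Ahsg and Fetub. They were chosen by name, as secreted carriers and inhibitors that the hepatocyte makes at rest, and all 10 were found among the 55414 gene rows of the deposited count table and passed the filter that left 14919 genes for testing. The libraries came from cells labelled Hnf4a knockout (KO) or wild type (WT), each treated with MJ041 or with DMSO vehicle, in 4 groups of 3: KO with MJ041, KO with vehicle, WT with MJ041 and WT with vehicle. MJ041 is a compound known here only by its code name, and the series title places the work in HNF4A dysfunction in sepsis. The sources used here give no dose, no treatment time, no deletion method, no strain and no age, and do not say whether the replicates of a group came from separate animals, so p-values measure the spread between these libraries, which may be technical.

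Hepatocytes load the blood with carrier proteins that hold small molecules in solution and with inhibitors that restrain proteases and mineral deposition. Albumin sets most of the colloid pressure of plasma and binds fatty acids, transferrin carries iron, and transthyretin and retinol-binding protein travel as a complex with retinol. The nuclear receptor HNF4A is a regulator of many hepatocyte genes and acts in a network with CEBPA, the FOXA factors and the ONECUT factors.

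The libraries held 16740761 to 17902832 counts, and no pair within a group agreed as closely as repeated readings of 1 library would (chi-square per degree of freedom 4.39 to 14.6 over 12 pairs). Hnf4a itself read 59.9, 76.0 and 66.7 CPM (counts scaled to a common library total) in KO cells with MJ041 and 61.1, 67.8 and 66.4 CPM in KO cells with vehicle, against 166, 178 and 142 CPM in WT cells with MJ041 and 121, 137 and 112 CPM in WT cells with vehicle. All 6 KO libraries lay below all 6 WT libraries, and Hnf4a reads remained in every KO library. Which part of the gene was deleted is not given in the sources used here. The hepatocyte label was checked with 12 other markers, which had reads in every library, and their summed level was 11863 to 14004 CPM in KO cells and 11776 to 19552 CPM in WT cells over both treatments. In WT cells the MJ041 replicates 1 and 2 stood apart by low markers of stellate cells, and MJ041 results in WT cells are given with and without them.

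The 300-base windows around the first annotated start of Rbp4 and the second of Fetub are shown because these genes share a promoter motif and moved in opposite directions in KO cells, as the values further on show. The capitals mark TGTTTAC, the core that FOXA factors bind, which lies on the opposite strand in Rbp4 and so reads GTAAACA there. Each window runs 5′ to 3′ on the gene's own strand, with 250 bases before the start and 50 after it, from RefSeq on GRCm38.p6, and lies at chr19:38125272-38125571 on the minus strand for Rbp4 and chr16:22919972-22920271 on the plus strand for Fetub.
Rbp4: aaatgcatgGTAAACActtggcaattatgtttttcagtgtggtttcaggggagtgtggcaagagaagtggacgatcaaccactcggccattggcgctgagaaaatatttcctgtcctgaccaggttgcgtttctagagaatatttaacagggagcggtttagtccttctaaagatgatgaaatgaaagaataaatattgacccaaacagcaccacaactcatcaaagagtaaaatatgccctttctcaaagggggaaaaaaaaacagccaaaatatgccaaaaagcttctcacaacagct
Fetub: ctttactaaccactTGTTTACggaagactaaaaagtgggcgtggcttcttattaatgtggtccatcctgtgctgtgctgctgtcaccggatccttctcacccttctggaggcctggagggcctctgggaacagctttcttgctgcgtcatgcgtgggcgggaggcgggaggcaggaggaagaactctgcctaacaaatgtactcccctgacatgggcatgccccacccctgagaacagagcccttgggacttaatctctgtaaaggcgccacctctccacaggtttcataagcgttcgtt
The first base of the motif stood at -241 from the start in Rbp4 and at -236 in Fetub, and the other starts annotated for these genes lacked it. Windows were on hand for 7 of the 10 genes, 10 windows in all, and were searched on both strands for 2 motifs, neither of which contains the other. A search for GTTAAT had also been planned and was not run. TGTTTAC was in 3.65% of 32851 mouse promoter windows of the same length, and in 2 of the 10 searched here, those shown. CAAAGTCCA, a form of the HNF4 site, was in 156 windows (0.475%) and in none of the 10 searched here. These letters are a description of the windows and say nothing of what binds there.

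With vehicle, the set of 10 genes split in KO cells. Serpina6, Serpina7, Ambp, Gc and Fetub rose, by 13.5-fold for Serpina6 and 1.42-fold for Fetub at the ends of that range. Ttr, Alb, Trf and Rbp4 fell, and Ttr was 3.64-fold lower. Ahsg did not pass the test. In edgeR's quasi-likelihood test with Benjamini-Hochberg adjustment over all 14919 genes, 5 of the 10 were higher, beside 27.5% of all genes tested, and 4 were lower, beside 26.9%, which makes 9 of 10 called in either direction, beside 54.5%. The libraries of both genotypes did not overlap for 9 of the 10, beside 63.1% of all genes. The median log2 fold change was 0.13 over the 10 genes and -0.0020 over all genes tested. With MJ041 in both genotypes, 5 of the 10 were higher (26.8% of all genes) and 5 lower (27.6%), and all 10 were called (54.4%) with no overlap of libraries. The median log2 fold change there was -0.056 over the 10 genes and 0.022 over all genes tested. These 2 comparisons use different libraries, and the 9 genes called with vehicle were called in the same direction with MJ041. Both come from the same fit, with a shared estimate of spread. By the rule given under processing, replicate numbers paired the KO libraries of both treatments, so the 2 comparisons may not be independent. Less RNA per hepatocyte and fewer hepatocytes in a culture cannot be told apart in such bulk samples.

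**Figure D1:**
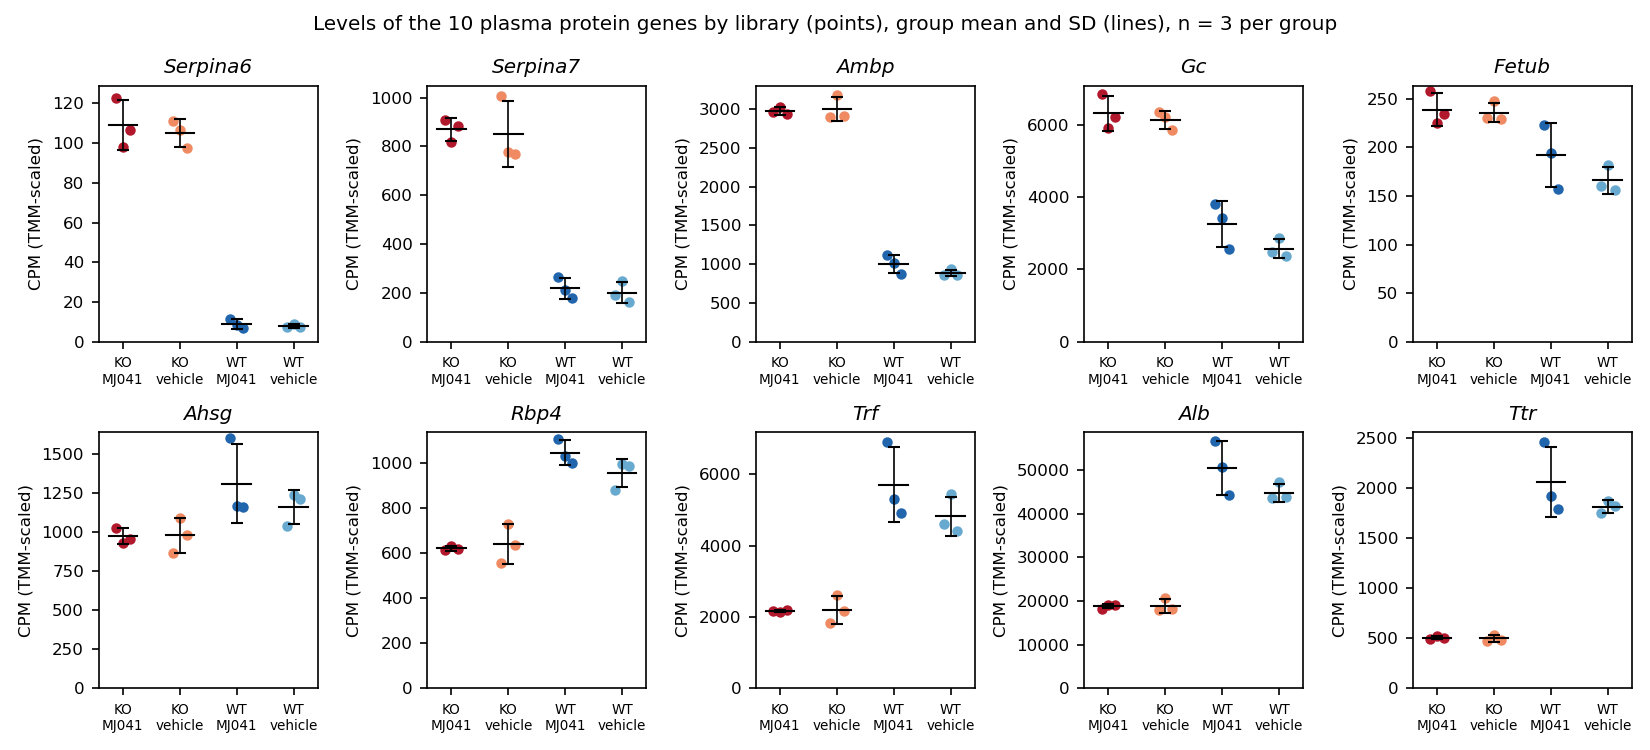
Levels of the 10 genes in CPM (y axes from 0, each with its own scale) for KO with MJ041, KO with vehicle, WT with MJ041 and WT with vehicle. Points are libraries and lines the mean and SD (n = 3 per group); the top row holds the genes higher in KO cells, the bottom row those lower, and in the Ahsg panel the KO and WT points with vehicle overlap.

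Alb, for albumin, is the most abundant of the set. It read 17897, 20659.8 and 18097 CPM in KO cells with vehicle and 43521, 47194 and 43702 CPM in WT cells with vehicle. With MJ041 it read 18275, 19115 and 19115 CPM in KO cells and 56531, 50598 and 44191 CPM in WT cells. Every KO library lay below every WT library, and the KO libraries were close to one another in both treatments. The log2 fold change of KO over WT was -1.25 ± 0.11 (SE, n = 3; adjusted p = 9.86e-07) with vehicle and -1.42 ± 0.11 (adjusted p = 3.19e-07) with MJ041. Alb still had the most reads of any gene in KO cells with vehicle. Per kilobase of exon, it ranked 2nd in KO cells with vehicle and 1st in WT cells with vehicle.

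Gc, for the vitamin D-binding protein, belongs to the albumin family and also binds free actin. In KO cells with vehicle it read 6345, 6214 and 5857 CPM, against 2486, 2871 and 2371 CPM in WT cells with vehicle. With MJ041 it read 6847, 5904 and 6213 CPM in KO cells and 3806, 3426 and 2570.4 CPM in WT cells. It thus went the other way from its relative Alb, with all KO libraries above all WT libraries. Its log2 fold change was 1.25 ± 0.13 (SE, n = 3; adjusted p = 3.94e-06) with vehicle and 0.95 ± 0.13 (adjusted p = 3.70e-05) with MJ041. Per kilobase it ranked 5th in KO cells with vehicle and 20th in WT cells with vehicle. The reads of Gc per read of Alb had a median of 0.324 over the 6 KO libraries and 0.0595 over the 6 WT libraries. This ratio needs no scaling of the libraries, and it differed by 2.44 on the log2 scale (exact two-sided permutation test within treatments, p = 0.005, the smallest of 400 arrangements; adjusted p = 0.006 over 6 ratios).

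Ttr, for transthyretin, which carries thyroxine and holds retinol-binding protein in plasma, read 477, 536 and 484 CPM in KO cells with vehicle and 1748, 1876 and 1825 CPM in WT cells with vehicle. Under MJ041 the levels were 492, 521 and 499.7 CPM in KO cells and 2457, 1924 and 1796 CPM in WT cells. It had the strongest fall of the set, with no overlap. KO over WT came to -1.86 ± 0.10 log2 units (SE, n = 3; adjusted p = 1.85e-08) with vehicle and -2.03 ± 0.10 (adjusted p = 7.91e-09) with MJ041. Rbp4, for the retinol-binding protein that docks on it, fell less. It read 556, 733 and 636 CPM in KO cells with vehicle and 883, 997 and 989.5 CPM in WT cells with vehicle. With MJ041 it read 615, 635 and 618 CPM in KO cells and 1109, 1031 and 1001 CPM in WT cells. The KO libraries again lay below all WT libraries, but the gap between the nearest libraries was narrower than for Ttr. Its log2 fold change was -0.58 ± 0.09 (SE, n = 3; adjusted p = 0.000126) with vehicle and -0.75 ± 0.09 (adjusted p = 1.38e-05) with MJ041. The median ratio of Rbp4 to Ttr reads was 1.24 in KO cells and 0.534 in WT cells, a log2 difference of 1.27 (exact permutation p = 0.005, adjusted p = 0.006).

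Trf, for transferrin, read 1829, 2605 and 2169 CPM in KO cells with vehicle and 4602, 5454 and 4418 CPM in WT cells with vehicle. The MJ041-treated cells gave 2160.4, 2134 and 2194 CPM in KO cells and 6917, 5299.7 and 4923 CPM in WT cells. All KO libraries lay below all WT libraries. On the log2 scale KO over WT came to -1.13 ± 0.14 (SE, n = 3; adjusted p = 2.41e-05) with vehicle and -1.40 ± 0.14 (adjusted p = 3.97e-06) with MJ041. The reads of Trf per read of Alb had a median of 0.116 in KO cells and 0.109 in WT cells, the ranges overlapped, and the log2 difference was 0.068 (exact permutation p = 0.29, adjusted p = 0.29). No difference in this ratio was therefore detected, which does not show that both genes fell equally.

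Serpina6 and Serpina7 are serpins that no longer inhibit proteases and carry hormones instead. Serpina6, for the corticosteroid-binding globulin, was the least abundant of the set in WT cells. It held 1948, 1837 and 1745 reads in KO cells with vehicle and 127, 150 and 132 reads in WT cells with vehicle, which is 111, 107 and 97.3 CPM against 7.22, 8.95 and 7.29 CPM. With MJ041 it held 123, 98.0 and 107 CPM in KO cells and 11.7, 8.68 and 6.74 CPM in WT cells. Each KO library stood far above each WT library. KO over WT was 3.75 ± 0.16 log2 units (SE, n = 3; adjusted p = 1.29e-09) with vehicle and 3.60 ± 0.15 (adjusted p = 1.75e-09) with MJ041. With vehicle, 99.4% of all tested genes had a lower fold change than Serpina6. Per kilobase it ranked 745th in KO cells with vehicle and 7702nd in WT cells with vehicle.

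Serpina7, for the thyroxine-binding globulin, read 1005, 775 and 769.9 CPM in KO cells with vehicle and 191, 248 and 163 CPM in WT cells with vehicle. Its levels with MJ041 were 909, 817 and 884 CPM in KO cells and 265, 211 and 179 CPM in WT cells. Every KO library was above every WT library, and the spread within a vehicle group, relative to its mean, was wider than for Alb or Ambp. Its log2 fold change was 2.08 ± 0.17 (SE, n = 3; adjusted p = 5.51e-07) with vehicle and 1.99 ± 0.17 (adjusted p = 7.43e-07) with MJ041. Serpina7 and Ttr, the thyroxine carriers of the set, thus changed in opposite directions, as did Serpina7 and Alb, whose product also binds thyroxine. The median ratio of Serpina7 to Serpina6 reads was 8.10 in KO cells and 25.4 in WT cells, a log2 difference of -1.64 (exact permutation p = 0.005, adjusted p = 0.006), so the 2 carriers rose by unequal amounts.

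Ambp encodes a precursor that is cut into the lipocalin alpha-1-microglobulin and the protease inhibitor bikunin. It read 2904, 3182 and 2914 CPM in KO cells with vehicle and 863, 934 and 863 CPM in WT cells with vehicle. Under MJ041 the gene stood at 2960.0, 3034 and 2938 CPM in KO cells and 1117, 1020.3 and 879.6 CPM in WT cells. The groups did not overlap, and the KO libraries were within a narrow band. The log2 fold change was 1.76 ± 0.09 (SE, n = 3; adjusted p = 5.94e-09) with vehicle and 1.57 ± 0.08 (adjusted p = 1.53e-08) with MJ041. Ambp and Rbp4 both encode lipocalins. The median ratio of Ambp to Rbp4 reads was 4.77 in KO cells and 0.956 in WT cells, a log2 difference of 2.33 (exact permutation p = 0.005, adjusted p = 0.006).

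Bikunin is joined in the secretory pathway to the heavy chains encoded by Itih1, Itih2 and Itih3. With vehicle, Itih2 averaged 1288 CPM in KO cells and 393 CPM in WT cells, with a log2 fold change of 1.71 ± 0.10 (SE, n = 3; adjusted p = 2.56e-08). Itih3 averaged 917 CPM in KO cells and 418 CPM in WT cells, with a log2 fold change of 1.13 ± 0.10 (adjusted p = 1.31e-06). Itih1 went the other way, at 183 CPM in KO cells and 258 CPM in WT cells, with -0.49 ± 0.10 (adjusted p = 0.000958). Itih4, whose product is not joined to bikunin, averaged 1126 CPM in KO cells and 1002 CPM in WT cells and did not pass the test (0.17 ± 0.16, adjusted p = 0.381). Among 10555 other genes, Itih2 had the pattern nearest to that of Ambp over the 12 libraries, with a root mean square difference of 0.0763 between centred log2 CPM. Ces1c, a carboxylesterase gene, was almost as near (0.0777), so this closeness was not particular to the heavy chains.

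Ahsg and Fetub encode fetuin-A, an inhibitor of mineral deposition, and fetuin-B, an inhibitor of the protease that hardens the egg coat, and stand next to each other on chromosome 16. Ahsg read 865, 1087 and 981 CPM in KO cells with vehicle and 1036, 1236 and 1213 CPM in WT cells with vehicle. With MJ041 it read 1029, 929.6 and 958 CPM in KO cells and 1600.0, 1166 and 1159.7 CPM in WT cells. The vehicle libraries overlapped and those with MJ041 did not. The log2 fold change was -0.25 ± 0.12 (SE, n = 3; adjusted p = 0.108, 95% interval -0.52 to 0.020) with vehicle, which did not pass, and -0.43 ± 0.12 (adjusted p = 0.0104) with MJ041, which did. Ahsg did pass with vehicle when WT MJ041 replicate 1 was left out of the shared fit (adjusted p = 0.0335), and did not pass with MJ041 when WT MJ041 replicates 1 and 2 were left out (adjusted p = 0.134). The test of whether the genotype effect on Ahsg differed between treatments had an adjusted p of 0.710.

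Fetub read 230.3, 247 and 229.5 CPM in KO cells with vehicle and 160.2, 182 and 156 CPM in WT cells with vehicle. Among MJ041-treated cells it stood at 258, 225 and 234 CPM in KO cells and 223, 194 and 158 CPM in WT cells. All KO libraries lay above the WT libraries of the same treatment, by little with MJ041. This gave a log2 fold change of 0.51 ± 0.11 (SE, n = 3; adjusted p = 0.00127) with vehicle and 0.32 ± 0.11 (adjusted p = 0.0217) with MJ041. The call with MJ041 did not pass without KO MJ041 replicate 1 (adjusted p = 0.0761) or without WT MJ041 replicate 3 (adjusted p = 0.0813). The median ratio of Fetub to Ahsg reads was 0.243 in KO cells and 0.143 in WT cells, a log2 difference of 0.75 (exact permutation p = 0.005, adjusted p = 0.006).

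**Figure D2:**
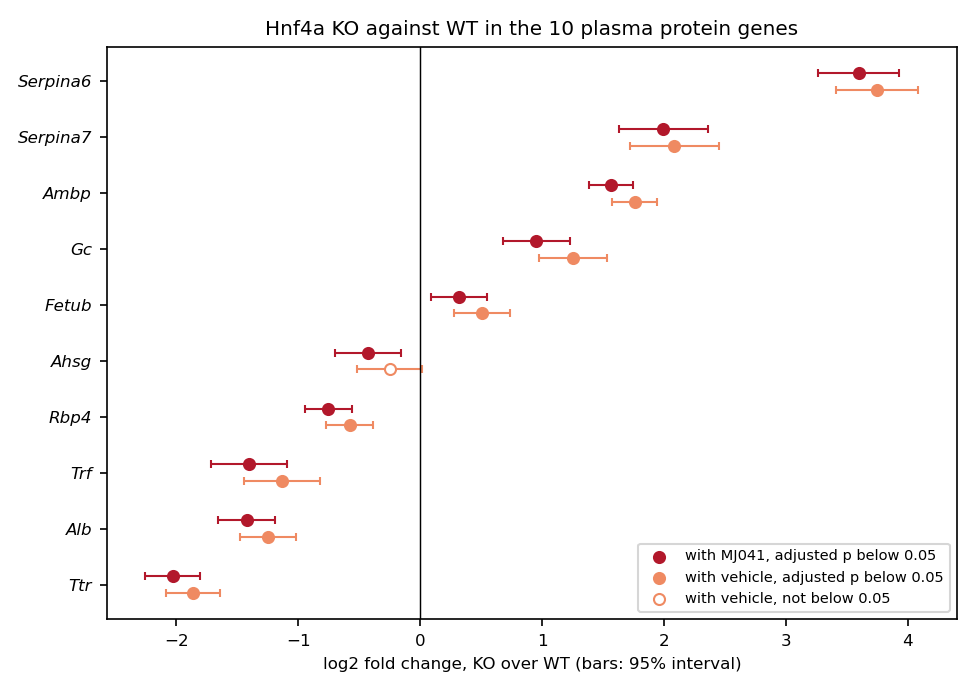
Log2 fold change of KO over WT for the 10 genes (x axis), with MJ041 and with vehicle, from edgeR's fit to all 12 libraries. Bars are 95% intervals and filled points have an adjusted p below 0.05; genes run from Serpina6 at 3.60 and 3.75 at the top to Ttr at -2.03 and -1.86 at the bottom, and the open point is Ahsg with vehicle.

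**Figure D3:**
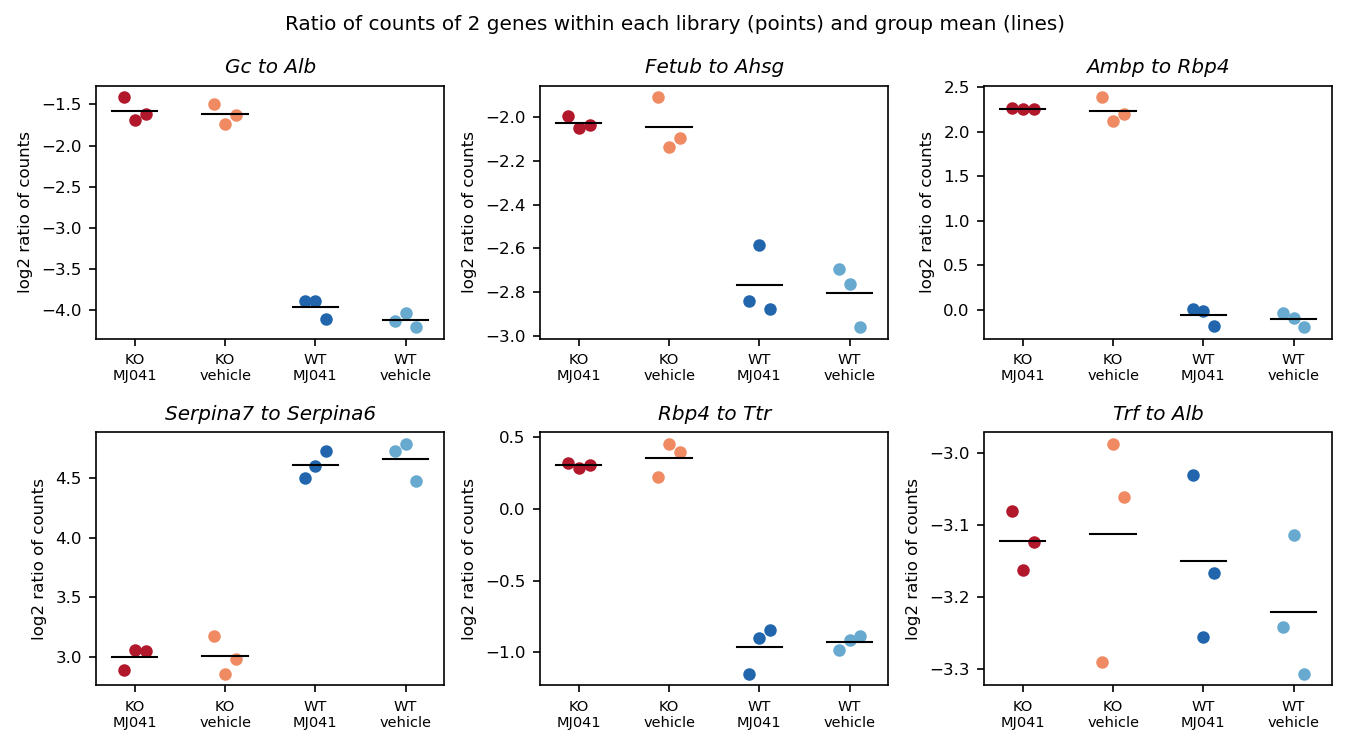
Log2 ratio of the reads of 2 genes within a library (y axes, not starting at 0) for KO with MJ041, KO with vehicle, WT with MJ041 and WT with vehicle. Points are libraries and lines group means; KO and WT libraries separate in 5 of the 6 pairs and overlap for Trf to Alb.

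The exact tests within treatments, of these ratios and of the share of counts below, count each library as a separate unit. By the rule given under processing, replicate numbers paired the KO libraries of both treatments. If such libraries share a source, these p-values overstate the evidence. Within 1 treatment alone, 3 libraries against 3 can give no exact p below 0.1, and each of the 5 ratios that differed kept its direction there. The log2 difference of Ambp to Rbp4 was 2.32 within MJ041 and 2.34 within vehicle, and that of Rbp4 to Ttr was 1.27 within MJ041 and 1.28 within vehicle. Gc to Alb and Ambp to Rbp4 each set a gene that rose without overlap over a gene that fell without overlap. Their separation therefore followed from the levels given above, and their p-values add no further support.

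Together the 10 genes held 3.29 to 3.59% of all counts in the 6 KO libraries (3.39% ± 0.111, SD) and 5.62 to 6.94% in the 6 WT libraries (6.03% ± 0.506). The difference was -2.64 percentage points (exact two-sided permutation test within treatments, p = 0.005, the smallest of 400 arrangements). Alb alone took 1.83 to 2.05% in KO libraries and 4.41 to 5.30% in WT libraries. With Alb removed from the sum and from the total, the other 9 genes held 1.52% ± 0.0525 in KO libraries and 1.41% ± 0.174 in WT libraries, and the difference of 0.103 points did not pass (exact permutation test, p = 0.175). The lower share of the set in KO cells was thus seen with Alb in the sum and not without it. Gc took 0.593 to 0.695% of counts in KO libraries and 0.240 to 0.357% in WT libraries, and Trf took 0.187 to 0.259% in KO libraries and 0.447 to 0.648% in WT libraries.

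**Figure D4:**
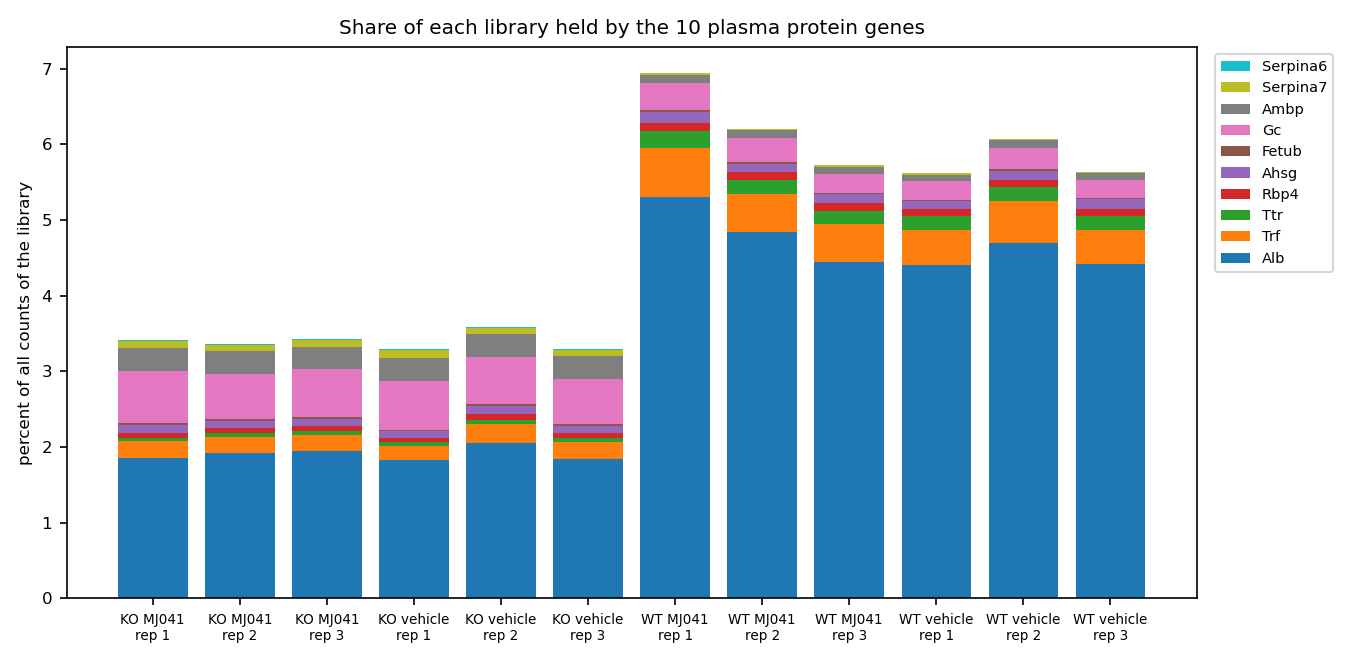
Percent of all counts of each library (y axis, from 0) held by each of the 10 genes, stacked, for the 12 libraries. The 6 KO libraries reach 3.29 to 3.59% and the 6 WT libraries 5.62 to 6.94%; the Alb segment is the shorter one in KO and the Gc and Ambp segments are the taller ones.

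Counted per kilobase of exon, which allows genes to be set side by side, the order of levels changed with genotype. In KO cells with vehicle it ran from Alb (8063 ± 658 CPM per kilobase, SD, n = 3) through Gc (3327 ± 137), Ambp (2129 ± 112), Trf (663 ± 117), Rbp4 (478 ± 65.8), Ahsg (445 ± 50.5), Ttr (421 ± 27.3), Serpina7 (347 ± 54.9) and Fetub (120.2 ± 5.15) to Serpina6 (59.7 ± 4.05). In WT cells with vehicle it ran from Alb (19131 ± 884) through Ttr (1531 ± 54.2), Trf (1453 ± 166), Gc (1396 ± 142), Rbp4 (712 ± 47.2), Ambp (629 ± 28.9), Ahsg (529 ± 49.8), Fetub (84.6 ± 7.12) and Serpina7 (81.9 ± 17.6) to Serpina6 (4.44 ± 0.558). In KO cells the ranges of 1 SD around the mean overlapped among Rbp4, Ahsg and Ttr, and Serpina7's range overlapped those of Ahsg and Ttr. In WT cells they overlapped among Ttr, Trf and Gc, and between Fetub and Serpina7. Among all tested genes, Ambp ranked 10th per kilobase in KO cells with vehicle and 41st in WT cells with vehicle, and Ttr ranked 76th in KO cells and 16th in WT cells.

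In the fit to all 12 libraries, none of the 10 genes was called for MJ041 against vehicle in either genotype. In WT cells the values were positive for all 10, between 0.12 ± 0.16 for Serpina7 and 0.34 ± 0.13 for Gc on the log2 scale (SE, n = 3), and the median was 0.18 over the 10 genes and 0.026 over all genes tested. None was called by edgeR (2.21% of all genes), by DESeq2 or by voom, and 2, Gc (adjusted p = 0.145) and Ambp (adjusted p = 0.227), had an unadjusted p below 0.05 in edgeR (21.6% of all genes). Rbp4 was the one gene whose MJ041 and vehicle libraries did not overlap (22.3% of all genes). All 10 genes were highest, of the 6 WT libraries, in MJ041 replicate 1. That library and MJ041 replicate 2 were also low in markers of other liver cells. The mean log2 CPM of the 10 tested of 14 stellate markers was 0.93, 1.04 and 2.21 in WT cells with MJ041 and 2.15, 2.06 and 2.22 in WT cells with vehicle. Of the tested markers, 0 of 10 stellate, 0 of 14 endothelial and 0 of 14 Kupffer cell markers were called by edgeR in this comparison, and 6, 7 and 2 of them had an unadjusted p below 0.05. Summed levels with MJ041 and with vehicle were 66.8 to 112 and 104 to 148 CPM for the stellate markers, 184 to 333 and 286 to 453 CPM for the endothelial ones, and 194 to 398 and 265 to 533 CPM for the Kupffer ones. Of the 12 hepatocyte markers, 2 were higher with MJ041, beside 1.19% of all genes, among them Krt8, a keratin (0.36 ± 0.08, SE, n = 3; adjusted p = 0.0424; 0.30 ± 0.11 and 0.981 without MJ041 replicates 1 and 2), and the list summed to 15153 to 19552 CPM with MJ041 and 11776 to 13147 CPM with vehicle. The part of cell content in the MJ041 values was tested no further than by the alternatives that follow. Without those 2 libraries, the values ran from -0.21 to 0.068 with a median of -0.012, 8 of them negative, with 1 MJ041-treated WT library left. With the mean level of stellate, endothelial and Kupffer cell markers in the model, the median was 0.067 and 8 of 10 values were positive. Under other alternatives some genes were called. Gc was called in edgeR without a filter on low counts (0.35, adjusted p = 0.00229), though its value hardly differed from the 0.34 of the filtered fit. Adjusted p-values fell in that unfiltered fit for other contrasts too. For KO against WT with vehicle, the smallest of the 10 genes was 6.39e-62, against 1.29e-09 with the filter in edgeR. The Gc call there thus does not reflect a larger response. Leaving out WT MJ041 replicate 3 kept only replicates 1 and 2 of that group, the libraries low in those markers. In that edgeR fit Gc (0.49, adjusted p = 0.00832), Fetub (0.33, adjusted p = 0.0250) and Ambp (0.27, adjusted p = 0.0313) were called.

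In KO cells the MJ041 values lay between -0.044 ± 0.09 for Rbp4 and 0.054 ± 0.13 for Serpina6. None of the 10 was called by edgeR (0% of all genes), DESeq2 or voom, and none had an unadjusted p below 0.05 (2.77% of all genes). The widest 95% interval, that of Serpina7, ran from -0.31 to 0.38. By the rule given under processing, the replicate numbers paired the KO libraries. With the number as a block in a fit of the 2 KO groups alone, 0 of the 10 genes were called (smallest adjusted p = 0.894 in edgeR) and 0 had an unadjusted p below 0.05. In that fit, 6 of 14273 genes were called in all. The test of whether the MJ041 response differed between genotypes gave values from -0.30 ± 0.18 for Gc to -0.090 ± 0.23 for Serpina7, with a median of -0.18 over the 10 genes and -0.015 over all genes. None was called by edgeR (0% of all genes), DESeq2 or voom, and none had an unadjusted p below 0.05 (13.3% of all genes). The share of counts held by the set differed by 0.262 points, MJ041 minus vehicle, which did not pass (exact permutation p = 0.23), and by -0.0223 points without WT MJ041 replicates 1 and 2 (exact permutation p = 0.9).

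Of 36 other constitutive plasma protein genes, 14 were higher and 16 lower in KO cells with vehicle, beside 27.5% and 26.9% of all genes. Their median log2 fold change was -0.038, against -0.0020 over all genes. Hrg, for histidine-rich glycoprotein, averaged 4.59 CPM in KO cells and 188 CPM in WT cells, a log2 fold change of -5.35 ± 0.13 (SE, n = 3; adjusted p = 1.36e-11). Mug1, a murinoglobulin that traps proteases, averaged 76.2 CPM in KO cells and 650.0 CPM in WT cells (-3.09 ± 0.11, adjusted p = 3.61e-10). Serpina1a, an alpha-1-antitrypsin gene, averaged 6.30 CPM in KO cells and 361 CPM in WT cells (-5.84 ± 0.19, adjusted p = 1.40e-10), but the Serpina1 genes are near-identical copies whose reads the counting could have divided. With MJ041, 13 of the 36 were higher and 16 lower, beside 26.8% and 27.6% of all genes. In WT cells, MJ041 against vehicle gave 0 higher and 1 lower, beside 1.19% and 1.02% of all genes. The lower one, Serpina1e (-1.22 ± 0.28, adjusted p = 0.0452 in edgeR), stood at -0.54 ± 0.23 without MJ041 replicates 1 and 2, which left 1 MJ041-treated WT library.

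Genes that lie beside the set on the chromosome moved in both directions. Of 20 genes in the albumin, fetuin and Serpina clusters, several of them among the 36 above, 18 were tested. In KO cells with vehicle 3 were higher and 12 lower, beside 27.5% and 26.9% of all genes, with a median log2 fold change of -0.91. With MJ041, 4 were higher and 11 lower, beside 26.8% and 27.6% of all genes. Serpina6 rose in a cluster on chromosome 12 where Serpina3k, one of the serpins related to alpha-1-antichymotrypsin, fell to 8.99 CPM in KO cells, against 989.9 CPM in WT cells (-6.78 ± 0.12, SE, n = 3; adjusted p = 1.04e-12), and Serpina1a fell as given above. Next to Ahsg and Fetub on chromosome 16 lie Hrg, which fell, and further on Kng1, the kininogen gene, at 489 CPM in KO cells and 552 CPM in WT cells, which did not pass with vehicle (-0.17 ± 0.13, adjusted p = 0.277) and was lower with MJ041 (-0.48 ± 0.13, adjusted p = 0.00688). Behind Alb on chromosome 5 stand Afp and Afm, the alpha-fetoprotein and afamin genes of the same family. Both fell with Alb, Afp to 6.20 CPM in KO cells against 12.1 CPM in WT cells (-0.97 ± 0.22, adjusted p = 0.00207) and Afm to 87.3 CPM in KO cells against 124 CPM in WT cells (-0.51 ± 0.09, adjusted p = 0.000540). Gc, on the same chromosome, rose.

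Of 28 receptors and enzymes that handle the carried ligands, 25 were tested. In KO cells with vehicle 7 were higher and 11 lower (median -0.14), beside 27.5% and 26.9% of all genes. Lrp1, a receptor that clears plasma proteins and lipoprotein remnants, rose to 523 CPM in KO cells, against 169.8 CPM in WT cells (1.62 ± 0.06, SE, n = 3; adjusted p = 6.87e-10). Dio1, the deiodinase that acts on thyroxine, fell to 0.208 CPM in KO cells, against 7.75 CPM in WT cells (-5.17 ± 0.30, adjusted p = 2.76e-08). Rdh11, a retinal reductase, was lower at 64.1 CPM in KO cells and 119.9 CPM in WT cells (-0.90 ± 0.06, adjusted p = 1.82e-07). Of 42 tested genes of signal recognition, translocation and export from the endoplasmic reticulum, 23 were higher, 4 lower and 15 not called with vehicle (median 0.26), beside 27.5% of all genes higher and 26.9% lower. With MJ041, 23 were higher, 5 lower and 14 not called, beside 26.8% of all genes higher and 27.6% lower. Among those that rose with vehicle were Sec61b, of the translocation channel (0.82 ± 0.07), Sec11c, of the signal peptidase (0.95 ± 0.10), and Pdia4, a disulfide isomerase (1.47 ± 0.15).

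Albumin, transthyretin, transferrin and fetuin-A are known to fall in the acute phase in humans, and the positive acute-phase genes were read beside them. Of these 20 genes, 6 were higher and 9 lower in KO cells with vehicle (median -0.016), beside 27.5% and 26.9% of all genes. With MJ041, 8 of the 20 were higher and 7 lower, beside 26.8% and 27.6%. With vehicle the lower ones included Apcs, for serum amyloid P (-2.54 ± 0.11, SE, n = 3; adjusted p = 1.69e-09), Saa1 (-1.42 ± 0.08) and Saa2 (-1.59 ± 0.09), both serum amyloid A genes and so alike that their reads may have been divided in counting. In WT cells, 3 of the 20 were lower with MJ041 than with vehicle: Saa3 (-1.10 ± 0.24, adjusted p = 0.0426), Il1rn (-0.88 ± 0.19, adjusted p = 0.0385) and Serpina3n (-0.30 ± 0.06, adjusted p = 0.0385), beside 1.02% of all genes. In the same comparison the median log2 fold change was -0.78 over the stellate, -0.74 over the endothelial and -0.60 over the Kupffer cell markers. Without MJ041 replicates 1 and 2 the values were -0.72 ± 0.31 for Saa3 (adjusted p = 0.997), -0.54 ± 0.21 for Il1rn (0.989) and -0.23 ± 0.08 for Serpina3n (0.981), with 1 MJ041-treated WT library left.

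Of 19 liver transcription factors, 9 were higher and 7 lower in KO cells with vehicle (median 0.34), beside 27.5% and 26.9% of all genes. With MJ041, 9 of the 19 were higher and 6 lower, beside 26.8% and 27.6%. Beside Hnf4a itself (-0.92 ± 0.10, SE, n = 3; adjusted p = 8.86e-06), Cebpa fell to 56.3 CPM in KO cells, against 102 CPM in WT cells (-0.86 ± 0.09, adjusted p = 6.54e-06). Foxa2 (0.47 ± 0.11), Onecut1 (1.85 ± 0.28), Onecut2 (1.38 ± 0.11) and Nr5a2 (0.63 ± 0.07) were higher. Rbp4 and Fetub, whose windows shown above hold TGTTTAC, moved in opposite directions in the same cells. Which annotated start these cells used, and whether FOXA factors act there, was not tested.

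**Figure D5:**
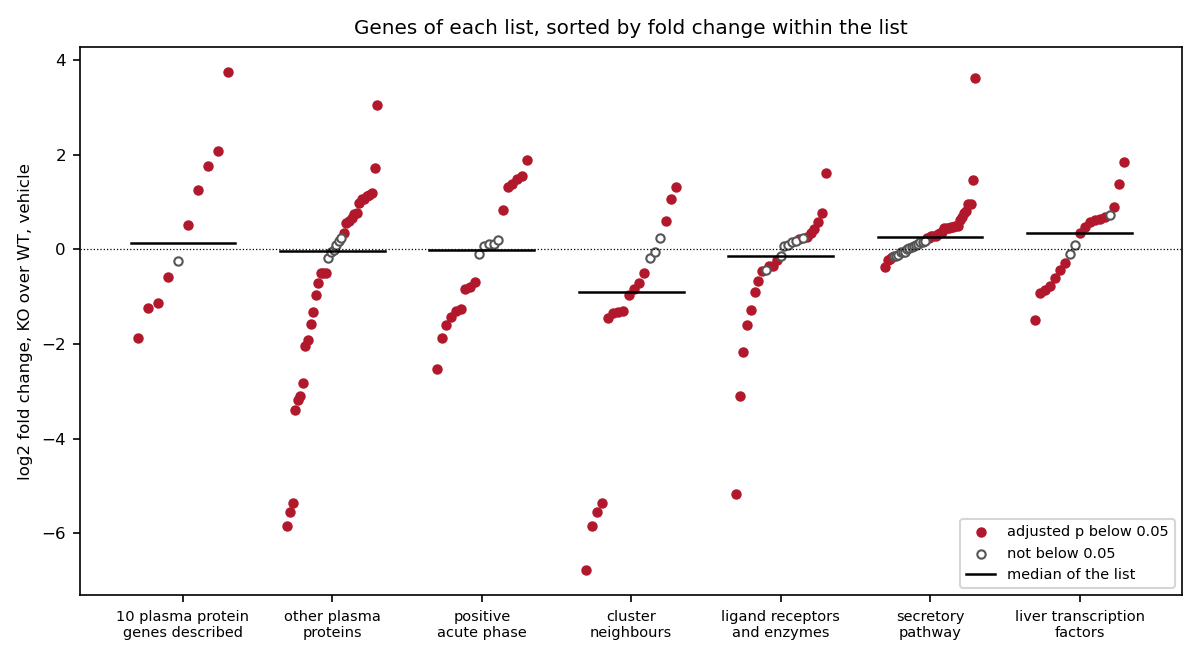
Log2 fold change of KO over WT with vehicle (y axis) for the tested genes of 7 lists, sorted within each list. Filled points have an adjusted p below 0.05 and lines are list medians; the 10 plasma protein genes spread from -1.86 to 3.75 around a median of 0.13, while secretory genes lie mostly above 0 (23 higher, 4 lower).

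Markers of cell types were read beside the genotype effect. The counts of markers called with vehicle stand beside 27.5% of all genes higher and 26.9% lower. Of the 12 hepatocyte markers, 2 were higher and 5 lower in KO cells with vehicle. Of 12 bile duct cell markers, 8 were tested, and 5 were higher and 1 lower in KO cells with vehicle. Their summed level was 518 to 718 CPM in KO cells with MJ041 and 581 to 761 CPM in KO cells with vehicle, against 264 to 389 CPM in WT cells with MJ041 and 417 to 631 CPM in WT cells with vehicle. Krt19, a bile duct keratin, averaged 31.0 CPM in KO cells and 3.20 CPM in WT cells with vehicle, while Epcam stood between 0.558 and 0.756 CPM in KO cells and between 0.828 and 1.85 CPM in WT cells, and Krt7 averaged 0.171 CPM in KO cells and 0.214 CPM in WT cells. Of the defining markers of other cells, those at 0 in any library were Cftr (1 KO library), Cldn7 (1 WT library), Clec4g (1 WT library), Lrat (1 KO and 1 WT library) and Hhip (2 WT libraries with MJ041). Of 14 Kupffer cell markers, 2 were higher and 1 lower, at summed levels of 479 to 533 CPM in KO cells and 265 to 533 CPM in WT cells with vehicle. Of 14 endothelial markers, 1 was higher and 1 lower (270 to 412 CPM in KO cells and 286 to 453 CPM in WT cells), and of 10 tested stellate markers, 1 was higher and 3 lower (91.3 to 153 CPM in KO cells and 104 to 148 CPM in WT cells). Sums follow the highest genes: Ecm1 (means of 63.5 CPM in KO and 70.2 CPM in WT cells) and Reln (38.0 and 11.2 CPM) for stellate cells, Mpeg1 (281 and 131 CPM) for Kupffer cells. The median log2 fold change with vehicle was 0.29 over the Kupffer, -0.12 over the endothelial and -0.61 over the stellate markers. Near-equal sums therefore do not show equal cell content. The part of these cells in the genotype effect was not tested beyond 1 alternative: with the mean Kupffer, endothelial and stellate marker level in the model, 9 of the 10 genes were called with vehicle and 9 with MJ041, where Ahsg was not called.

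Over the 12 libraries, the genes nearest in pattern to each of the set were measured by the root mean square difference between centred log2 CPM, among 10555 genes that averaged 5 CPM or more, as a description in which the genotype contrast dominates. Gc was closest to Dstn (0.0527) and Gpt2 (0.0592), Fetub to Ndufa8 (0.0633), Rbp4 to Eaf1 (0.0659), Ahsg to Gjb1 (0.0691), Alb to Dusp28 (0.0822), Trf to Sord (0.0831), Ttr to Rdh7 (0.108), Serpina7 to Fndc4 (0.117) and Serpina6 to Gstm2 (0.176). The pattern of Serpina6 had the most distant nearest neighbour of the 10, and that of Gc the closest.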

How the data were processed

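RNA from primary mouse hepatocytes was sequenced in 12 libraries, 3 in each of 4 groups taken from the sample labels. The deposited values are raw read counts for each Ensembl gene, not normalized by the authors. The build mm39, featureCounts, STAR 2.7.10b, Trimmomatic 0.34, FastQC and DESeq2 are named in the submitters' processing notes. The kit was stranded, per the labels' protocols. The strand and multimapping settings of the counting are not given in the sources used here, so reads of near-identical or overlapping genes may be divided in ways that were not checked. A symbol was found for 52081 of 55414 identifiers.

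Genes were filtered with filterByExpr (minimum count 10), libraries were scaled by TMM, and edgeR 4.0.16 (R 4.3.3) fitted all 12 libraries by quasi-likelihood, with a coefficient for every group. Benjamini-Hochberg adjustment ran over the 14919 genes tested, with a threshold of 0.05. Standard errors were taken as the log2 fold change over the root of F, and 95% intervals use the t distribution with the fit's degrees of freedom. DESeq2 1.42.0, voom from limma 3.58.1, other scalings, no filter, a marker covariate, a replicate block and leaving out libraries were alternatives. Numbers were taken to pair 2 groups where all 3 same-number pairs had a correlation of deviations from the group means above 0.1. This held for 1 of 6 pairs of groups, KO with MJ041 and KO with vehicle (0.13 to 0.67). The rule does not establish pairing. KO vehicle replicate 3 correlated more with KO MJ041 replicate 1 (0.27) than with replicate 3 (0.13). Between the WT treatments the correlations were -0.034, 0.31 and 0.62 for replicates 1, 2 and 3. The block in the KO groups alone, and the named WT genes without MJ041 replicates 1 and 2, were added after seeing the data. Single values per library used exact permutation tests within strata, which count each library as a separate unit and leave out any pairing between treatments. The fit was tested on simulated data. CPM is TMM-scaled, and exon lengths, gene order and promoter windows come from GRCm38 annotation, which is not the build of the counts. Counting error is small for well-expressed genes at these depths and larger for genes of few reads, such as Dio1 in KO cells, Krt7 and Epcam. PCR copies were not removed with molecular identifiers, so any counting interval covers counting error only.

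The members, the gene lists and the naming rule were chosen with earlier results of these data known. All 10 members are named. Of each list, up to 3 called genes, lowest adjusted p first, are named, besides Hnf4a, Cebpa, Foxa2, Onecut1, Itih1 to Itih4, Afp, Afm, Hrg and Kng1. Epcam, Krt7, Cftr, Cldn7, Clec4g, Lrat, Hhip, Ecm1, Reln and Mpeg1 were named after their values were seen. Some genes that this rule names are not reported here.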

Additional observations from a re-analysis of the deposited data

How the results depend on the processing

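In KO against WT, 9 or 10 of the 10 genes were called with vehicle and with MJ041 under every alternative run, and the genes that crossed the threshold were Ahsg and Fetub. Ahsg with vehicle was called without a filter on low counts (adjusted p = 0.0211), without WT MJ041 replicate 1 (0.0335) and without WT MJ041 replicates 1 and 2. Without the filter, edgeR's adjusted p-values for KO against WT were far smaller at nearly the same fold changes. Ahsg with MJ041 was not called with the marker covariate (0.0865) or without WT MJ041 replicates 1 and 2 (0.134). The cause was not tested.

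For MJ041 against vehicle in WT cells, 1 gene (Gc) was called without a filter on low counts, at nearly the same fold change as with it, and leaving out 1 library gave 0 to 3 called genes. Fetub, Gc and Ambp were called without WT MJ041 replicate 3, which kept only replicates 1 and 2 of that group, low in markers of other cells. The share of counts, KO minus WT, was 0.103 points with Alb left out, and the share, MJ041 minus vehicle, was -0.0223 points without WT MJ041 replicates 1 and 2, a fit that leaves 1 such library, assumed to vary like the other groups.

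Where a gene's value turned sign, it was not called in that setting or in the fit to all libraries. For MJ041 in WT cells, the marker covariate gave -0.11 for Serpina6 and -0.18 for Serpina7. Without WT MJ041 replicates 1 and 2, the values were -0.018 for Alb, -0.015 for Ttr, -0.00097 for Ahsg, -0.073 for Fetub, -0.0016 for Gc, -0.0095 for Ambp, -0.21 for Serpina6 and -0.16 for Serpina7. Leaving out 1 library gave -0.020 to 0.38 for Serpina6 and -0.041 to 0.27 for Serpina7. For MJ041 in KO cells, the marker covariate gave 0.012 for Alb, 0.0050 for Ahsg and 0.0068 for Ambp. Leaving out 1 library there gave -0.048 to 0.066 for Alb, -0.022 to 0.071 for Ttr, -0.15 to 0.11 for Trf, -0.096 to 0.075 for Ahsg, -0.042 to 0.055 for Fetub, -0.021 to 0.080 for Gc, -0.14 to 0.062 for Rbp4, -0.041 to 0.034 for Ambp, -0.041 to 0.12 for Serpina6 and -0.041 to 0.17 for Serpina7. For the interaction, the marker covariate gave 0.035 for Fetub, 0.22 for Serpina6 and 0.27 for Serpina7. Without WT MJ041 replicates 1 and 2 it was 0.012 for Alb, 0.028 for Ttr, 0.089 for Fetub, 0.041 for Gc, 0.26 for Serpina6 and 0.20 for Serpina7. Leaving out 1 library gave -0.33 to 0.073 for Serpina6 and -0.24 to 0.072 for Serpina7.

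Across all groups, 9 of 18 same-number pairs had a correlation of deviations above 0.1 (-0.19 to 0.67). By the rule used, which does not establish pairing, the numbers paired the KO groups only. With the replicate block, 9 and 10 of the genes were called in KO against WT with vehicle and with MJ041, and 0 in each MJ041 comparison and in the interaction, as without it, and 0 in the fit of the KO groups alone.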
